A study of Mus musculus with 4 samples.

Results

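The genes described here encode the core machinery of synaptic vesicle release. They were chosen by name: every probe whose RefSeq accession maps to a symbol made of Syt, Stx, Vamp, Syn, Sv2, Rims, Cplx, Stxbp or Snap with a number or letter suffix, with the brightest probe standing for a gene. The accession table held 66 such symbols, and 61 of them had a matched probe among the 33269 genes and transcripts on the array. Stx11, Stxbp5, Sv2c, Syt5 and Vamp9 had no matched probe. Cplx4, Stx19, Syt8 and Syt15 were not well above background on the arrays, which left 57 members measured in both brain regions. Synb, Sync and Synm fit the letters of the rule but belong to other gene families and were left out. Snap91, which encodes the clathrin assembly protein AP180, meets the rule by its symbol and was kept.

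A synaptic vesicle fuses with the plasma membrane when a vesicle SNARE protein (synaptobrevin, Vamp genes) zips together with the target SNAREs syntaxin (Stx genes) and SNAP25. Munc18 proteins (Stxbp genes) chaperone the syntaxins, synaptotagmins (Syt genes) sense calcium, complexins (Cplx genes) hold and then release the assembled complex, RIM proteins (Rims genes) tie vesicles to calcium channels at the active zone, and synapsins (Syn genes) and SV2 proteins belong to the vesicle itself. In ischemic brain, uncontrolled release of glutamate from terminals is a textbook early event of energy failure. Close relatives of these proteins serve membrane traffic in every cell, so the families hold both neuronal and general members.

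The tissue came from 9-week-old males of the C57BL/6J strain and was taken 6 h after a filament inside the vessel had permanently blocked the middle cerebral artery, and each mouse was given 1 µl of saline into the cerebral ventricle. Each of 4 two-color Agilent arrays on 1 slide compared ischemic tissue with healthy tissue of the matching name: ischemic core with healthy core on replicates 1 and 2, and ischemic penumbra with healthy penumbra on replicates 3 and 4. Blood flow falls furthest in the core, and the penumbra is the less deprived tissue around it. Ischemic RNA carried Cy5 on replicates 1 and 3, and Cy3 on replicates 2 and 4. The labels mention 3 mice per group and scoring of neurological signs, without saying whether RNA was pooled, whether both arrays of a region held the same extracts, or where the healthy tissue was taken from. Each dye-swapped pair was therefore counted as 1 replicate, errors are the SD between its arrays, and no SD here measures spread between animals. Since tissue pieces were measured whole, fewer cells of a type and less RNA per cell cannot be told apart.

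Values are log2 ratios of ischemic over healthy tissue, relative to the loess trend of features of like brightness on the same array. The log2 signals of single genes given below were not scaled between arrays, so ischemic and healthy signals compare within an array. A gene was called changed where the mean of its swapped pair reached 2-fold and both arrays pointed one way by 1.5-fold or more. A smaller shift was described where both arrays pointed one way by 1.2-fold (0.263 log2) or more. The share of spots well above background ran from 76.1% to 79.4% per channel, and 0 spots were saturated. Scaling to 10 spike-in control transcripts instead would take 0.48 log2 off core ratios and 0.46 log2 off penumbra ratios, more than any positive mean among the members, so every ischemic over healthy mean above 0 given below for a member or a partner gene turns negative under it. That offset is itself the mean of unlike arrays: the spike-in transcripts had median ischemic over healthy ratios of 1.16 and -0.20 on core replicates 1 and 2, and 1.49 and -0.66 on penumbra replicates 3 and 4.

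The promoters of 4 members are shown, taken from among the higher and the lower ratios. They are not the full set of extremes, since Syt4, Syt2 and Sv2b are not shown. Each is the stretch of 250 bases before the RefSeq transcription start (GRCm38.p6), read on the gene's own strand. Snap23 lies at chr2:120567421-120567670 on the plus strand, Stx4a at chr7:127841558-127841807 on the plus strand, Cplx1 at chr5:108550028-108550277 on the minus strand and Syt3 at chr7:44383876-44384125 on the plus strand. Capitals mark GC boxes, GGGCGG on either strand, and neighbouring boxes may share bases.
Snap23: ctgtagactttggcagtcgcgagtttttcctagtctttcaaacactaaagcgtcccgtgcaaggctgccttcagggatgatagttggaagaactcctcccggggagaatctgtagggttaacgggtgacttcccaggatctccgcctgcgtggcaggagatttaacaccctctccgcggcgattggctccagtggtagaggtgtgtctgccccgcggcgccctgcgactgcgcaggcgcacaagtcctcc
Stx4a: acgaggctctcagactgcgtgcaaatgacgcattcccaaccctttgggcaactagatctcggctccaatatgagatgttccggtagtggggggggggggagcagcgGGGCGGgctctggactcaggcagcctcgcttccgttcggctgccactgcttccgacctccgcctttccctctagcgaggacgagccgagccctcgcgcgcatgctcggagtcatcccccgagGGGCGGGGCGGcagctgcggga
Cplx1: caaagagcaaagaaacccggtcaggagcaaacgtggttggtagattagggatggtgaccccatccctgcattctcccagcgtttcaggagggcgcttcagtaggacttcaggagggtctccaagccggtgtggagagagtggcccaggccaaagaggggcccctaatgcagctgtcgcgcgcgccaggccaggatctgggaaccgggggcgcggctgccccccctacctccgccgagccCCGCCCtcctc
Syt3: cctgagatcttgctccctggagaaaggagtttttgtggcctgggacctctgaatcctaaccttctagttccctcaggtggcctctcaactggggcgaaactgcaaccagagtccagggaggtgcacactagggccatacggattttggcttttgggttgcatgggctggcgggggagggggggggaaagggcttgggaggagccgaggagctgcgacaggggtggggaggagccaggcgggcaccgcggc
Snap23 and Stx4a were higher in both regions, and Cplx1 and Syt3 were lower. Among these 4 the GC box did not follow that division: 3 matches stood in Stx4a and 1 in Cplx1, whereas Snap23 and Syt3 held none of these letters.

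Of the 61 members, 46 had a promoter in the RefSeq table. A GC box, the binding motif of Sp factors, was found in 31 of them (67.4%), against 35.4% of 27025 genes in the table, which includes noncoding genes. It was present in 5 of 9 members that were higher on all 4 arrays and in 5 of 8 that were lower on all 4. The cyclic AMP response element TGACGTCA was found in 2 members, Syn1 and Stxbp3 (4.35%, against 1.77% of all genes). The AP-1 motif TGANTCA was found in 2, Syt2 and Syt8 (4.35%, against 7.82%), and the Egr motif GCGNGGGCG in 4, Stxbp5l, Syn2, Syt16 and Vamp4 (8.70%, against 5.33%). The heat shock element and the repressor element RE1 were each searched as a fixed pattern of letters. Neither pattern occurred in any of the 46, and they occurred in 0.514% and 0.026% of all genes. Patterns this rare would seldom be met among 46 genes of any kind. Their absence therefore cannot tell whether the members carry these elements. Both strands were searched, and a match is a run of letters, not a shown binding site.

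No vesicle release gene was called changed in either region. In ischemic core, 0 of 57 measured members passed the 2-fold rule, where 0.31% of 24537 features did, all of them higher. In ischemic penumbra, 0 of 57 passed, where 0.245% of 24926 features did. Without penumbra replicate 3, Cplx2 was called at -1.02, the value of replicate 4 alone. At the shares of all features fewer than 1 call would be reached among 57 genes of any kind, so the absence of calls does not set the members apart. Mean log2 ratios ran from -0.37 for Syt2 to 0.34 for Snap23 in the core, with a median of -0.03 beside -0.01 over all features. In the penumbra they ran from -0.45 for Cplx1 to 0.35 for Snap23, with a median of -0.04 beside -0.01. That penumbra median was 0.0063 without replicate 3 and 0.010 without replicate 4, and with spike-in scaling the medians were -0.50 in both regions.

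The few small shifts past 1.2-fold were downward. In the core, 1 member, Syt2, was lower by at least 1.2-fold on both arrays, a share of 1.75% beside 0.986% of all features, and 0 members were higher, beside 4.06% of all features. In the penumbra, 5 members were lower by this measure, namely Cplx1, Cplx3, Sv2b, Syt2 and Syt3, a share of 8.77% beside 1.88% of all features, and 0 were higher, beside 5.03%. With median centring without loess, 1 member was lower by this measure in the penumbra, and with the mean over a gene's probes 3 were. With processed signals 2 members were higher in the core, and 1 was in the penumbra. With spike-in scaling 41 were lower in each region. Counting direction alone, 15 members were higher and 16 lower on both core arrays (26.3% and 28.1%, beside 26.9% and 28.0% of all features). On both penumbra arrays 18 were higher and 16 lower (31.6% and 28.1%, beside 30.3% and 32.4%). Over all 4 arrays, 12 members were higher each time and 10 lower each time, 21.1% and 17.5% of the 57, beside 17.9% and 17.5% of 24204 features.

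**Figure D1:**
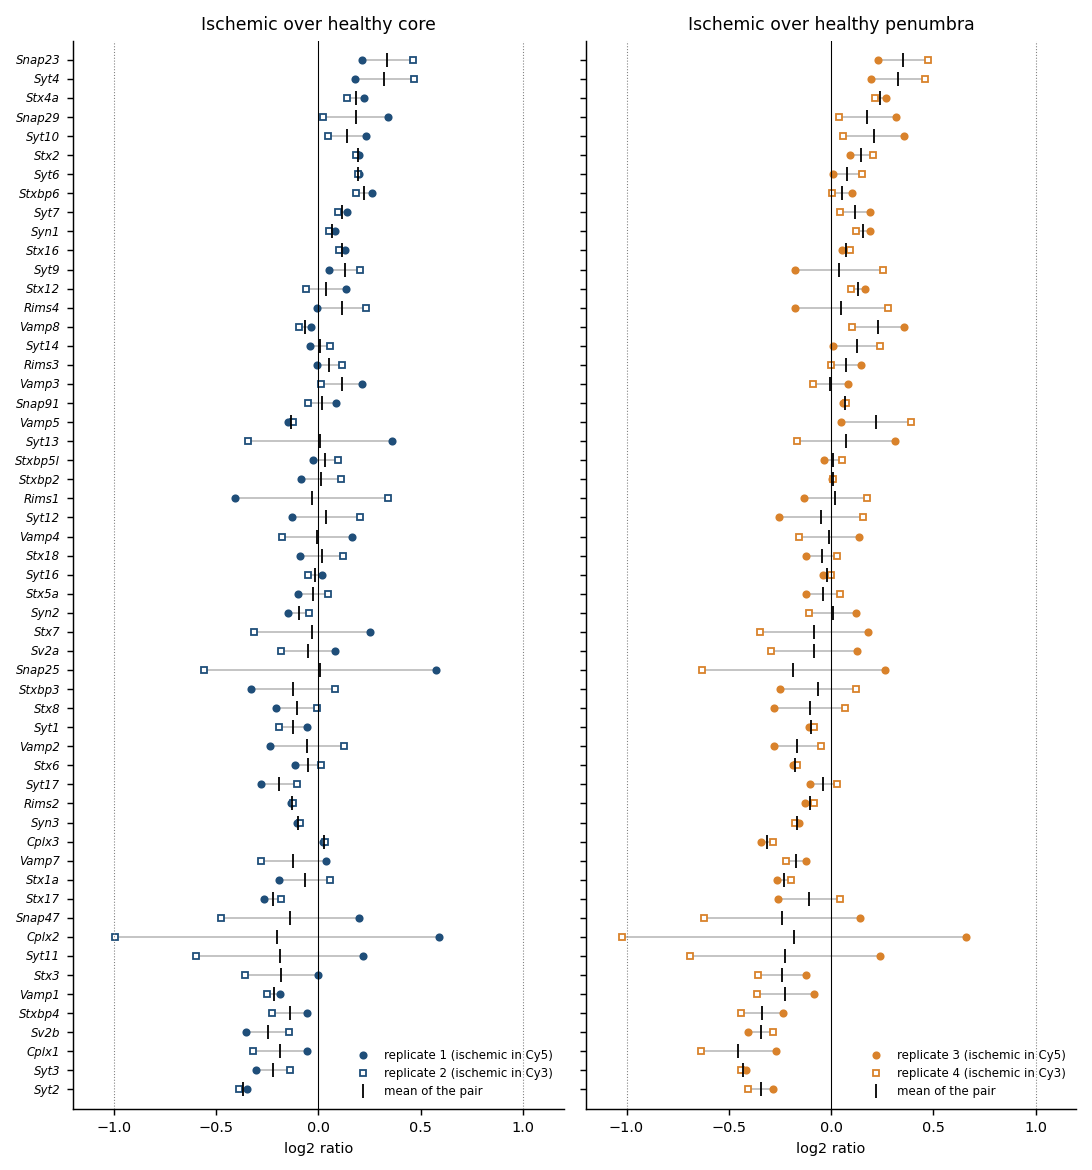
Log2 ratios of ischemic over healthy tissue for 55 of the 57 measured members in core (left) and penumbra (right), ordered by the mean of both regions. Filled circles and open squares are the arrays of the dye-swapped pair, ticks are their means and dotted lines mark 2-fold. Snap23 and Syt4 lead, Syt2, Syt3 and Cplx1 trail, and the arrays lie far apart for Cplx2 and Snap25.

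Among the vesicle SNAREs, 6 of 7 Vamp means lay below 0 in the core and 5 of 7 in the penumbra. Vamp1, the synaptobrevin of spinal, brainstem and some forebrain neurons, had log2 signals of 14.06 and 14.26 in ischemic core against 14.24 and 14.50 in healthy core, and 13.07 and 12.89 in ischemic penumbra against 13.15 and 13.25 in healthy penumbra. It was lower in ischemic tissue on all 4 arrays, with mean ratios of -0.22 ± 0.04 in the core and -0.22 ± 0.20 in the penumbra. Vamp2, the main synaptobrevin of forebrain synapses, had log2 ratios of -0.24 and 0.12 on the core arrays and -0.28 and -0.05 on the penumbra arrays. Its arrays disagreed in sign in the core, and its other probes, both dimmer, gave positive means of 0.13 and 0.14 in the core and 0.16 and 0.11 in the penumbra. Direction is thus not settled for Vamp2.

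The Vamp genes of general membrane traffic did not move as a group. Vamp3, or cellubrevin, of recycling endosomes, had means of 0.11 ± 0.14 in core tissue and 0.00 ± 0.12 in penumbra tissue, and Vamp4 of the trans-Golgi network had -0.01 in both. A second Vamp3 probe of similar brightness gave 0.18 and 0.16, and a second, dimmer Vamp4 probe gave 0.08 and 0.09. Vamp7, a SNARE of late endosomes, had -0.12 ± 0.23 and -0.17 ± 0.07. Vamp5, a SNARE known from muscle and other nonneuronal cells, had ratios of -0.15 and -0.12 on the core arrays but 0.05 and 0.39 on the penumbra arrays. Vamp8, or endobrevin, which serves secretion in exocrine and blood cells, likewise had -0.03 and -0.10 on the core arrays and 0.35 and 0.10 on the penumbra arrays. For both genes the penumbra arrays lay above the core arrays without overlap. The second Vamp8 probe gave -0.08 and 0.25, close to the first, whereas a second, dim Vamp5 probe gave 0.04 and -0.05.

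Among the target SNAREs, Snap23, the relative of SNAP25 found in most cell types, had log2 signals of 9.94 and 10.14 in ischemic core against 9.73 and 9.68 in healthy core, and 10.02 and 10.08 in ischemic penumbra against 9.79 and 9.61 in healthy penumbra. On each array the ischemic signal was the higher one, and the mean ratios were 0.34 ± 0.17 (1.26-fold) in the core and 0.35 ± 0.17 (1.28-fold) in the penumbra. These were the highest means among the 57 members in each region, and both turn to -0.14 and -0.11 with the spike-in scaling. Its other probes also lay above 0, with 0.20 and 0.10 in the core and 0.20 and 0.26 in the penumbra. Snap29, which acts in endosomal and autophagosome fusion, had 0.18 ± 0.23 and 0.18 ± 0.20, with almost all of the difference on the arrays that carried ischemic RNA in Cy5.

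Snap25, the neuronal target SNARE, was given no direction, since its swapped arrays disagreed in sign. Its log2 signals were 17.26 and 16.56 in ischemic core against 16.68 and 17.11 in healthy core, and 16.86 and 16.11 in ischemic penumbra against 16.60 and 16.74 in healthy penumbra. On each array the tissue labelled with Cy5 was the brighter one, and the mean ratios were 0.01 ± 0.80 and -0.18 ± 0.63. A second probe of nearly the same brightness gave 0.01 and -0.09, and another, dimmer one gave -0.12 and -0.40. Snap47, a broadly expressed relative, had -0.14 ± 0.48 and -0.24 ± 0.54, also with opposite signs on the swapped arrays. Snap91, whose clathrin assembly protein sizes the recycled vesicle, had 0.02 ± 0.10 and 0.07 ± 0.01.

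Of the 13 measured syntaxins, 4 were higher and 3 lower on both core arrays (30.8% and 23.1%, beside 26.9% and 28.0% of all features). On both penumbra arrays 5 were higher and 3 lower (38.5% and 23.1%, beside 30.3% and 32.4%). Stx1a, one of the presynaptic syntaxins, had log2 signals of 13.54 and 13.49 in ischemic penumbra against 13.80 and 13.69 in healthy penumbra, and a mean ratio of -0.23 ± 0.05 there. In the core its ratios were -0.19 and 0.06, with opposite signs.

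The syntaxins of the plasma membrane of many cells had means on both sides of 0. Stx4a, which serves regulated exocytosis in many nonneuronal cells, had log2 signals of 11.70 and 11.84 in ischemic core against 11.48 and 11.70 in healthy core, and 11.75 and 11.81 in ischemic penumbra against 11.48 and 11.60 in healthy penumbra. It was higher on all 4 arrays, with means of 0.18 ± 0.06 and 0.24 ± 0.04, and its second probe gave 0.22 and 0.31. Stx2, or epimorphin, averaged 0.19 ± 0.01 in the core and 0.15 ± 0.08 in the penumbra. Stx3, found at ribbon synapses of the retina and at apical membranes of epithelia, had -0.18 ± 0.25 and -0.24 ± 0.16. Among syntaxins of internal membranes, Stx17 of autophagosomes averaged -0.22 ± 0.06 in the core and -0.11 ± 0.21 for penumbra, and Stx6 of the trans-Golgi network had -0.05 ± 0.09 and -0.18 ± 0.02. A second Stx17 probe gave -0.04 and -0.01, and a second, much dimmer Stx6 probe gave 0.06 and 0.03. The other syntaxins of internal membranes, Stx5a, Stx7, Stx8, Stx12, Stx16 and Stx18, lay between -0.11 and 0.13 in both regions.

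Stxbp4, or synip, known from insulin-regulated glucose transporter traffic in fat cells, was lower on all 4 arrays. Its log2 signals were 8.99 and 8.77 in ischemic penumbra against 9.22 and 9.20 in healthy penumbra, and its means were -0.14 ± 0.12 in the core and -0.34 ± 0.14 in the penumbra. A second, dimmer probe gave -0.16 and -0.12. Stxbp6, or amisyn, an inhibitor of SNARE assembly, was higher on all 4 arrays, with 0.22 ± 0.06 in the core and 0.05 ± 0.07 in the penumbra. Stxbp2 and Stxbp3, the Munc18 forms of nonneuronal cells, and Stxbp5l, a tomosyn, had means between -0.12 and 0.03 in both regions.

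The synaptotagmins, the family with the most measured members, held the widest range from lowest to highest mean. Of 14 measured, 5 were higher and 4 lower on both core arrays, and likewise 5 and 4 on both penumbra arrays. That is 35.7% and 28.6% each time, beside 26.9% and 28.0% of all features in the core and 30.3% and 32.4% in the penumbra. Syt1, the main fast calcium sensor of forebrain synapses, had log2 signals of 16.33 and 16.21 in ischemic core against 16.38 and 16.40 in healthy core, and 16.06 and 15.84 in ischemic penumbra against 16.17 and 15.92 in healthy penumbra. Its means by the brightest probe, -0.12 ± 0.10 and -0.10 ± 0.02, were small but below 0 on all 4 arrays. Its dimmer probes gave means between -0.18 and 0.05 in the core and between -0.17 and 0.13 in the penumbra. The third brightest probe lay above 0 in both regions, so the direction of Syt1 depends on the probe. Syt2, the fast sensor of hindbrain and fast inhibitory synapses, was a dim probe here, with 7.85 and 7.88 in ischemic core against 8.19 and 8.27 in healthy core, and 7.75 and 7.59 in ischemic penumbra against 8.03 and 7.99 in healthy penumbra. On each array the ischemic signal was the lower one, and the means were -0.37 ± 0.03 (0.775 of the healthy level) in the core and -0.34 ± 0.09 (0.788) in the penumbra.

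Syt3, a calcium-binding synaptotagmin reported in the postsynaptic membrane of rodent neurons, had log2 signals of 10.47 and 10.68 in ischemic core against 10.77 and 10.81 in healthy core. In the penumbra it had 10.22 and 10.09 in ischemic tissue against 10.64 and 10.53 in healthy tissue. Ischemic tissue had the lower signal on each array, and the means were -0.22 ± 0.12 in the core and -0.43 ± 0.02 (0.743 of the healthy level) in the penumbra. Limma over arrays, with Benjamini-Hochberg adjustment over all features, called 2 members lower in the penumbra, Syt3 (adjusted p = 0.021) and Cplx1 (adjusted p = 0.028), where it called 1.15% of all features lower. It called 0 members in the core, where 8 had an unadjusted limma p below 0.05 and 3.39% of all features were called, and these p-values measure only the spread between arrays.

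Syt4 and Syt10, whose transcripts are known to follow neuronal activity in rodents, were both higher on all 4 arrays, and by unlike amounts. Syt4, a synaptotagmin that binds little calcium and sits on dense-core vesicles, had log2 signals of 12.47 and 12.67 in ischemic core against 12.30 and 12.20 in healthy core, and 12.18 and 12.31 in ischemic penumbra against 11.98 and 11.85 in healthy penumbra. The means were 0.32 ± 0.20 (1.25-fold) and 0.33 ± 0.19 (1.26-fold), which turn to -0.15 and -0.13 with the spike-in scaling. A second probe gave 0.29 and 0.21. Syt10, a sensor of growth factor secretion in olfactory bulb neurons, had ratios of 0.23 and 0.05 on the core arrays and 0.36 and 0.06 on the penumbra arrays. Its ischemic and healthy signals overlapped in each region, since its level differed between arrays in both tissues alike, and a second probe near background gave -0.01 and 0.00.

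Among the other synaptotagmins, Syt6 averaged 0.20 ± 0.00 in the core and 0.08 ± 0.10 for penumbra, and Syt7, the slow sensor of asynchronous release, had 0.12 ± 0.03 and 0.12 ± 0.10. Syt17, a form without a membrane anchor of the usual kind, had -0.19 ± 0.12 and -0.04 ± 0.09. Syt11, a relative of Syt4 with a very bright probe, had -0.19 ± 0.57 and -0.23 ± 0.66, with opposite signs on the swapped arrays. By their brightest probes, Syt9, Syt12, Syt13, Syt14 and Syt16 lay between -0.05 and 0.13 in both regions. Other probes of Syt16, one of nearly the same brightness, gave -0.07 and -0.11 in the core and -0.29 and -0.27 in the penumbra. A second, dimmer Syt12 probe gave -0.11 in the core and -0.29 in the penumbra. Second, dimmer probes gave -0.06 and -0.07 for Syt13 and 0.17 and 0.15 for Syt14.

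**Figure D2:**
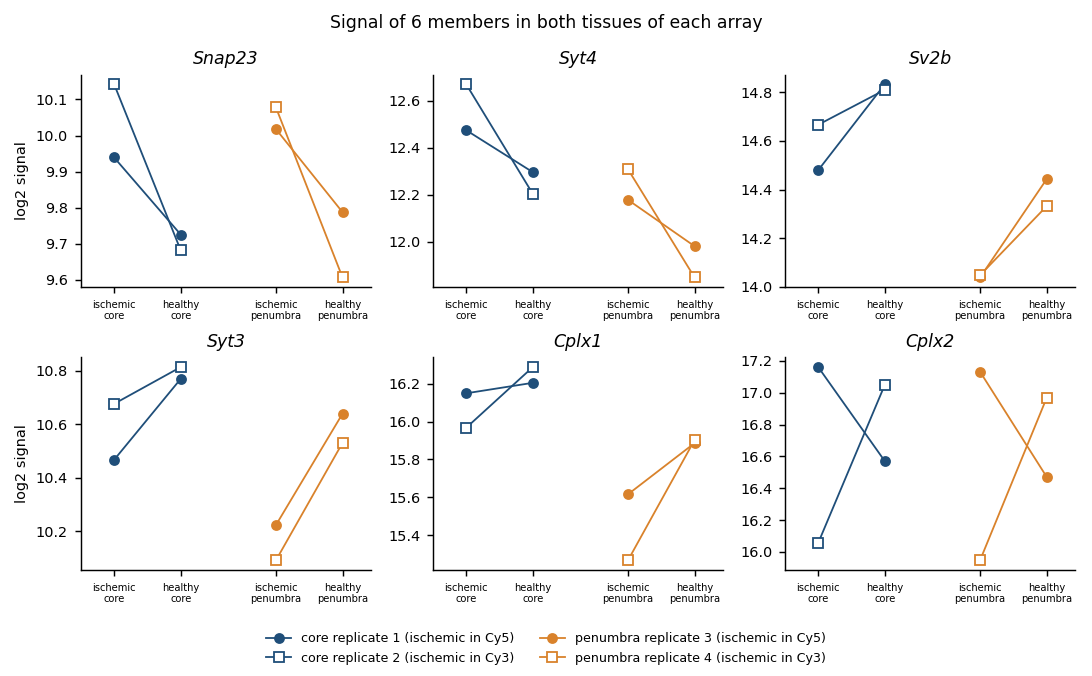
Log2 signal of 6 members in ischemic (left of each pair) and healthy tissue (right), with a line for each array, after loess within arrays and with no scaling between arrays, so levels compare along a line. For Snap23 and Syt4 every line goes down to healthy tissue, for Sv2b, Syt3 and Cplx1 every line goes up, and for Cplx2 the lines cross because the Cy5 tissue was the brighter one on each array.

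Complexins were the family with the lowest median in the penumbra, -0.31 over 3 measured genes. Cplx1, one of the main forebrain complexins, had log2 signals of 16.15 and 15.97 in ischemic core against 16.20 and 16.29 in healthy core, and 15.62 and 15.27 in ischemic penumbra against 15.89 and 15.90 in healthy penumbra. It was lower on all 4 arrays, with means of -0.19 ± 0.19 in the core and -0.45 ± 0.26 (0.731 of the healthy level) in the penumbra, the lowest penumbra mean of any member. Cplx3, known from retinal ribbon synapses and from subplate neurons of the cortex, had ratios of 0.02 and 0.03 on the core arrays but -0.34 and -0.28 on the penumbra arrays. Its second probe gave -0.07 and -0.20. Cplx2, the partner of Cplx1 at forebrain synapses, had ratios of 0.59 and -0.99 on the core arrays and 0.66 and -1.02 on the penumbra arrays. Its means of -0.20 ± 1.12 and -0.18 ± 1.19 were given no direction, since the swapped arrays disagreed in sign. Its 3 dimmer probes gave means between -0.22 and 0.09 in the core and between -0.26 and -0.06 in the penumbra.

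Genes of active zone proteins and of the vesicle's synapsins had means between -0.16 and 0.16. Rims1, whose protein recruits calcium channels and primes vesicles, had ratios of -0.41 and 0.34 on the core arrays and -0.13 and 0.18 on the penumbra arrays. Rims2, its close partner, was lower on all 4 arrays at -0.13 ± 0.01 and -0.11 ± 0.03, and the short forms Rims3 and Rims4 had means between 0.05 and 0.11. Syn1, the major synapsin, had 0.07 ± 0.02 and 0.16 ± 0.05 by its brightest probe, but -0.14 and -0.36 by its other probe, so its direction is not settled. Syn2 had -0.10 ± 0.07 and 0.01 ± 0.16, and Syn3, the developmental synapsin, had -0.10 ± 0.01 and -0.16 ± 0.01.

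Sv2b, a vesicle glycoprotein of excitatory terminals, had log2 signals of 14.48 and 14.67 in ischemic core against 14.83 and 14.81 in healthy core, and 14.04 and 14.05 in ischemic penumbra against 14.44 and 14.33 in healthy penumbra. Within each array the ischemic signal lay below the healthy one, and the means were -0.25 ± 0.15 and -0.34 ± 0.09 (0.788 of the healthy level). A second probe gave -0.11 and -0.13. Sv2a, the binding site of the antiepileptic drug levetiracetam, had ratios of opposite sign on the swapped arrays and means of -0.05 ± 0.19 and -0.08 ± 0.30.

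Medians were also taken by probe brightness. The 20 members with a mean log2 intensity of at least 13 had medians of -0.06 in the core and -0.15 in the penumbra, where the 3120 and 3123 features of that brightness had 0.00 in each. The 37 dimmer members had medians of 0.03 and 0.02, beside -0.01 in each region over all dimmer features. The order of bright and dim members turned with the dye. Bright members had medians of 0.08 and 0.12 on core replicate 1 and penumbra replicate 3, where dim members had -0.01 and -0.03. On core replicate 2 and penumbra replicate 4, bright members had -0.19 and -0.24 and dim members 0.06 and 0.05. Of the genes listed as the release machinery of brain neurons, 12 (Syt1, Snap25, Stx1a, Vamp1, Vamp2, Syn1, Syn2, Sv2a, Sv2b, Rims1, Cplx1 and Cplx2) had medians of -0.08 and -0.17 by their brightest probes. On both core arrays 1 of them was higher and 5 were lower, 8.33% and 41.7% of the 12, beside 26.9% and 28.0% of all features. On both penumbra arrays 1 of the 12 was higher and 6 were lower, beside 30.3% and 32.4% of all features.

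Markers of other cell types moved in the penumbra as well. All 10 meningeal markers were higher on both penumbra arrays, with a median ratio of 0.38, which the spike-in offset would turn negative, and summed signals of 19648 and 20195 in ischemic penumbra against 14402 and 14162 in healthy penumbra. All 7 choroid plexus markers were higher too, with a median of 0.63 and sums of 35504 and 38160 against 22482 and 23957. Of 8 excitatory neuron markers, 0 were higher and 6 were lower on both penumbra arrays (median -0.23), whereas 16 general neuron markers had a median of 0.02. In the core, the medians were -0.13 for meninges, 0.05 for excitatory neurons and 0.01 for neurons. Of 7 measured neutrophil markers, 6 were higher on both core arrays (median 0.56) and 5 on both penumbra arrays (median 0.28). Of 14 striatal neuron markers, 11 were higher on both core arrays, and 9 were lower and 3 higher on both penumbra arrays. Of 9 oligodendrocyte markers, 6 were higher on both arrays in each region. Over all features, 26.9% were higher and 28.0% lower on both core arrays, and 30.3% and 32.4% on both penumbra arrays. The part of these cell types in the member ratios was not tested.

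Limma over all 4 arrays with a coefficient for dye, which removes the dye effect from the error, called 9 members higher and 12 lower in the core and 10 higher and 17 lower in the penumbra at a Benjamini-Hochberg adjusted p of 0.05 over all features. The same fit called 16.0% of all features higher and 13.5% lower in the core, and 21.7% higher and 21.2% lower in the penumbra. In this fit a gene's own error is only how far the dye effect differed between the core pair and the penumbra pair. Its p-values treat the arrays of a pair as replicates and measure no spread between animals. Snap23 had an adjusted p of 0.00019 in the core in this limma fit and Syt4 one of 0.00027. Both genes were higher on 4 of 4 arrays, by 1.26-fold and 1.25-fold in the core. The members called lower by this limma fit included genes with opposite signs on the swapped arrays. Among them were Cplx2 (adjusted p = 0.00676 in the core and 0.00898 in the penumbra), Syt11 (0.00999 and 0.00258), Snap47 (0.04298 and 0.00175) and, in the penumbra, Snap25 (0.01419).

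Whether the response to ischemia differed between regions was compared on all 4 arrays. By the rule of at least 1 log2 unit with the core arrays on one side of both penumbra arrays, 0 of 57 members differed, where 0.0594% of 25251 features did. Limma over arrays without a dye coefficient called 0 members for this difference, where 2 had an unadjusted limma p below 0.05 and 0.00792% of all features were called, and with a dye coefficient it called 4, where it called 7.08%. Without the size condition, 9 members had both core arrays above both penumbra arrays and 4 had them below, 15.8% and 7.02% of members beside 15.7% and 14.8% of all features. The differences ran from -0.35 for Vamp5 to 0.34 for Cplx3, with a median of 0.01. Mean ratios in core and penumbra correlated at r = 0.77 across the 57 members and at 0.73 across 24204 features, a description over genes that share arrays and dyes. Syt3 and Stxbp4 differed by 0.21 and 0.20, being lower in the penumbra than in the core, and Syt17 and Syt14 by -0.15 and -0.12.

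**Figure D3:**
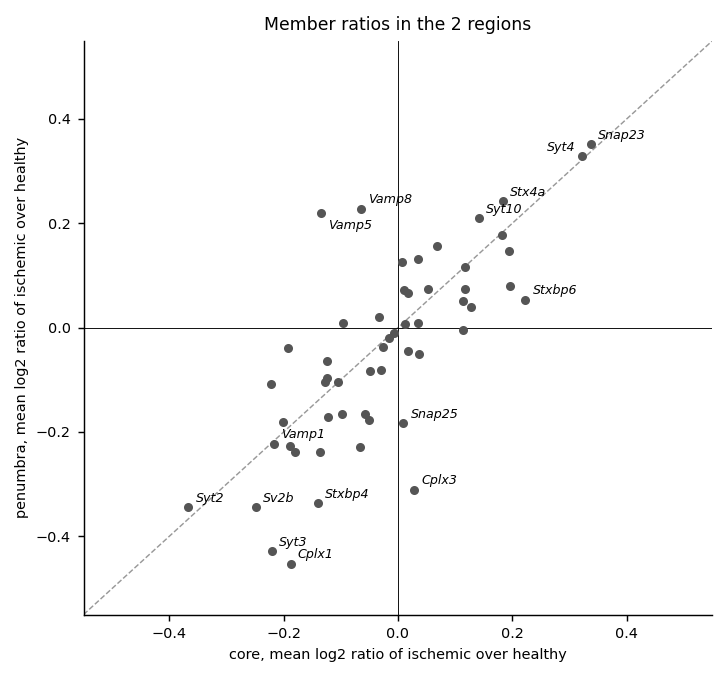
Mean log2 ratio of ischemic over healthy tissue in the core (horizontal) and penumbra (vertical) for 55 of the 57 members, with the line of equal ratios dashed. Snap23 and Syt4 sit together at the upper right, at 0.34 and 0.32 in the core, Syt2 sits near the line at the low end, Cplx1, Cplx3 and Syt3 lie below it, and Vamp5 and Vamp8 lie above it.

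Core and penumbra pieces were further apart than ischemic and healthy tissue, with member means of core over penumbra from -0.57 to 1.00 in ischemic tissue and from -0.57 to 1.00 in healthy tissue. Single-channel values were compared within each dye, core over penumbra, separately for ischemic and for healthy tissue. In ischemic tissue 1 of 57 members, Vamp1, passed the 2-fold rule, where 1.35% of 24877 features did and 0.442% were higher in the core piece, and in healthy tissue 0 passed, where 1.13% of 24896 did. Vamp1 had log2 ratios of core over penumbra of 0.86 and 1.14 in ischemic tissue, with a mean of 1.00 just inside the rule, and of 1.02 and 0.97 in healthy tissue, with a mean just outside it. The gene was thus about 2-fold higher in the core piece in both tissues, and its call in one of them rests on a margin far below its SD of 0.19.

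Several other members differed alike in both tissues. Both tissues were measured on the same arrays, so a shift of an array or spot enters both. Their likeness, for Vamp1 and for the members below, is therefore not a separate check. All 4 Rims genes were higher in the core piece in both dyes, with means of 0.28 to 0.61 in ischemic tissue and 0.30 to 0.67 in healthy tissue. Stx1a had 0.72 ± 0.13 in ischemic tissue and 0.56 ± 0.00 in healthy tissue, and Stxbp6 had 0.59 ± 0.06 and 0.42 ± 0.05. Higher in the penumbra piece were Syt9, a fast calcium sensor of limbic and striatal neurons (-0.48 ± 0.09 and -0.57 ± 0.10), Stxbp3 (-0.57 ± 0.10 and -0.51 ± 0.08), Stxbp2 (-0.43 ± 0.05 and -0.44 ± 0.08) and Syt6 (-0.34 ± 0.02 and -0.45 ± 0.09). Vamp8 had -0.43 ± 0.07 in ischemic tissue but -0.14 ± 0.07 in healthy tissue. Stx2 had -0.28 ± 0.12 and -0.33 ± 0.03. Over all members, 34 were higher and 11 lower in the core piece in both dyes, in ischemic and in healthy tissue alike, 59.6% and 19.3% beside 41.5% and 32.3% of features in ischemic tissue and 41.0% and 32.1% in healthy tissue.

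The pieces also differed in regional markers, in ischemic and healthy tissue alike, which again share arrays. Of 14 striatal neuron markers, 10 were called lower in the ischemic core piece and 11 in the healthy core piece, with medians of -1.47 and -1.78. Oligodendrocyte markers had medians of -0.80 and -0.81, choroid plexus markers -4.04 and -3.36, cortical neuron markers 0.53 and 0.42, and excitatory neuron markers 0.57 and 0.41. Summed striatal signals were 156913 and 143452 in ischemic core against 395257 and 259866 in ischemic penumbra, and 115063 and 134701 in healthy core against 287301 and 360471 in healthy penumbra. The part of these regional differences in the member values was not tested.

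**Figure D4:**
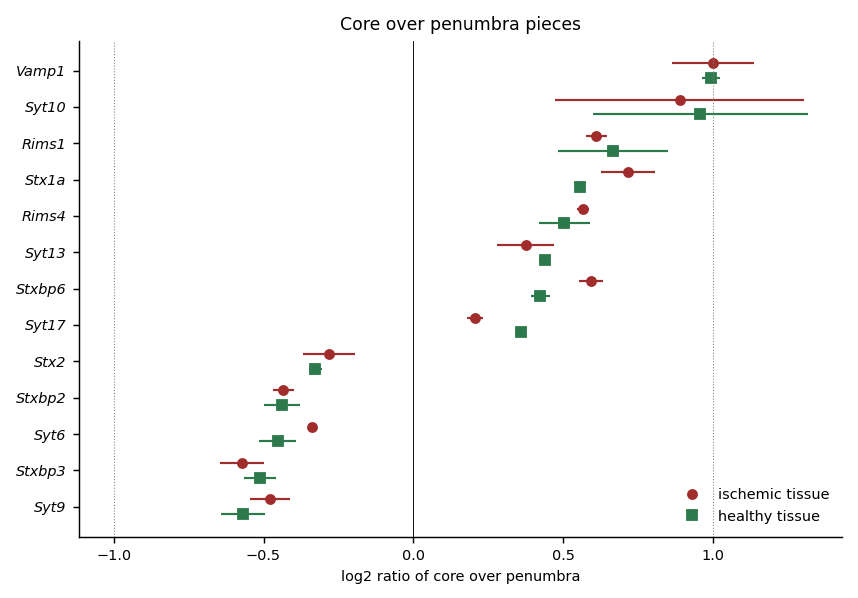
Log2 ratio of core over penumbra for the 8 highest and 5 lowest members by healthy tissue, in ischemic tissue (circles) and healthy tissue (squares). Symbols are means over the 2 dyes, lines span the dyes and dotted lines mark 2-fold, which Vamp1 reaches in ischemic tissue, while the lines of Syt10 are the longest in both tissues.

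For Syt10 and Snap47, core over penumbra differed between the pairs of arrays, and alike in both tissues. Set against penumbra replicate 3, core replicate 1 had a Syt10 log2 ratio of 0.47 in ischemic tissue and 0.60 in healthy tissue. Set against penumbra replicate 4, core replicate 2 had 1.31 in ischemic tissue and 1.32 in healthy tissue. Snap47 had -0.69 and -0.75 in the first pair of arrays and 0.37 and 0.23 in the second. Both tissues of an array thus shifted together for these genes, whereas ischemic over healthy ratios, taken within an array, do not contain that shift. Its cause was not tested.

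Dye bias is the log2 of Cy5 over Cy3 that remains after the ischemic and healthy signals of a swapped pair cancel. Its median absolute size was larger over the members than over all features. It correlated with intensity at r = 0.53 over the members, and features of equal brightness were not compared. At least 0.25 log2 of bias was measured in 8 members in the core (14.0%) and 6 in the penumbra (10.5%), beside 3.64% and 3.44% of all features. Among the highest were Cplx2 (0.79 in the core and 0.84 in the penumbra), Snap25 (0.57 and 0.45) and Syt11 (0.41 and 0.46), which are among the brightest probes. By the mean over both regions Rims1 was lowest, with -0.37 in the core and -0.16 in the penumbra, followed by Stxbp3 (-0.21 and -0.19), Syt12 (-0.17 and -0.20) and Rims4 (-0.12 and -0.23). The median absolute bias was 0.09 in the core and 0.10 in the penumbra, beside 0.07 in each region over all features. Bias in the core and in the penumbra correlated at r = 0.92 over the 57 members, which share probes and dyes. It is opposite in sign on the turned arrays of a pair and cancels in their mean, but it fills the SD: for Cplx2 the mean of -0.20 stands beside an SD of 1.12.

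**Figure D5:**
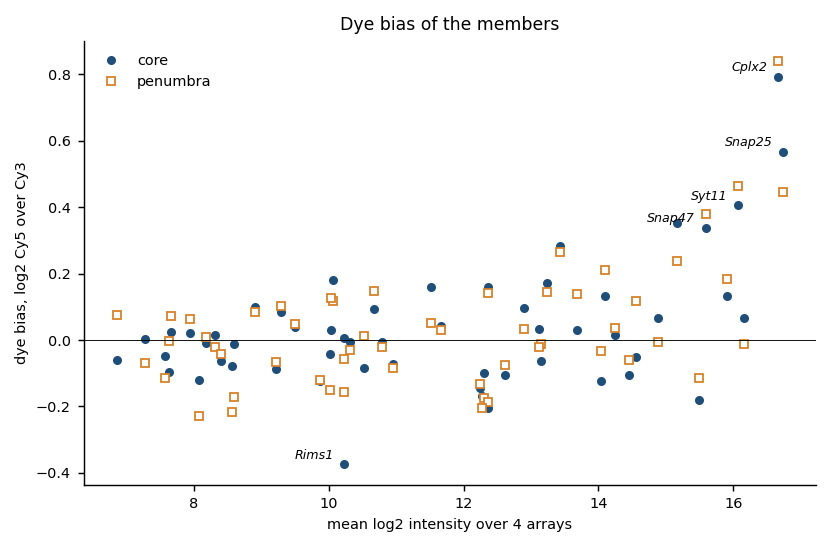
Dye bias, log2 Cy5 over Cy3, of 55 of the 57 members in core (filled circles) and penumbra (open squares) against the mean log2 intensity over 4 arrays. Most members lie within 0.25 of 0, and Cplx2, Snap25 and Syt11, at intensities above 16, lie highest.

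Partners of the release machinery showed shifts of the same small size. Of 33 listed priming and active zone genes, 25 were measured and 0 passed the 2-fold rule in either region. Their medians were -0.03 in core tissue and -0.09 in penumbra tissue, and 5 were higher and 13 lower on both penumbra arrays (20.0% and 52.0%, beside 30.3% and 32.4% of all features). Lower by at least 1.2-fold on both penumbra arrays were Cadps2, a priming factor of dense-core vesicles, at -0.39 ± 0.17, and Erc2, a scaffold of the active zone, at -0.37 ± 0.11. In the core these had -0.09 ± 0.16 and -0.19 ± 0.05. Also in the penumbra, Napg, an adaptor of the factor that takes SNARE complexes apart, had -0.24 ± 0.16, Snapin had -0.19 ± 0.00 and Bsn, the active zone scaffold bassoon, had 0.20 ± 0.03.

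Vesicle membrane partners (16 measured of 17 listed) had medians of -0.05 and -0.10. Syp, or synaptophysin, averaged -0.14 ± 0.05 in the core and -0.22 ± 0.16 for penumbra, and Dnajc5, the cysteine string protein, had -0.12 ± 0.15 and -0.26 ± 0.20. Hspa8, the constitutive chaperone that uncoats clathrin vesicles, had 0.32 ± 0.32 and 0.28 ± 0.34. Of 24 genes listed for vesicle endocytosis, 22 were measured, with medians of -0.01 and -0.04. Ap2b1, a subunit of the AP-2 adaptor, was higher by at least 1.2-fold on both arrays of each region, at 0.40 ± 0.07 and 0.36 ± 0.06. Picalm, a clathrin assembly protein related to AP180, had 0.24 ± 0.09 and 0.26 ± 0.08, and Ap2a1, another AP-2 subunit, had -0.22 ± 0.10 and -0.29 ± 0.06.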

How the data were processed

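RNA was measured on 4 two-color arrays. The deposited scanner output gives spot intensity for Cy3 and Cy5. It comes from Agilent Feature Extraction 11.0.1.1, as named by the submitters' processing notes and per the file headers. The authors' deposited series table holds log10 ratios, which matched the log10 of processed Cy5 over Cy3 to within 5e-06, with column medians of -0.0215, 0.00516, -0.0199 and -0.0115, and was used as a check. From these, median spot signals were background-corrected (normexp, offset 50), then each array was loess-normalized (limma 3.58.1, R 4.3.3), control spots and spots marked as outliers having weight 0. Python 3.11.15, pandas 2.3.3, numpy 2.4.6 and matplotlib 3.10.9 served for tables and plots.

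Cy3 median signals ran from 192 to 225.5 over backgrounds of 64 to 66, Cy5 ones from 284 to 310 over 70 to 71, and the number of arrays limits the precision. A probe was kept in a region if 1 of its tissues had it well above background on both arrays. The files gave accessions without symbols; 23374 of 41174 probes were named through RefSeq accessions without versions (GRCm38.p6), and the members had 105 probes, with several for 32 genes. The array design, built on mm8 per the file headers, gave no coordinates used here. Core and penumbra pieces were compared after loess and Aquantile within each dye.

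The members, lists and rules were chosen with earlier results of these data known. Genes were named by a rule: members past a 2-fold rule, the neuronal release machinery, Syt4 and Syt10, the 8 highest and 8 lowest of each region with one sign on both arrays, the extremes of the other comparisons and of dye bias. Other members appear to complete their families, and 2 members are counted but not reported by name or plotted. Alternatives were processed signals, median centring, spike-in scaling, no filter, the mean over probes, limma over arrays without and with a dye coefficient, and each array left out. Calls rest on no p-value, and no batch could be tested with 1 slide.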

Additional observations from a re-analysis of the deposited data

Results flagged for a closer look

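Of the 57 measured members, 4 had a response to ischemia that differed between core and penumbra in limma over the 4 arrays with a dye coefficient (Benjamini-Hochberg adjustment over all features), a fit that called 7.08% of all features. A gene's own error in this fit is only how far the dye effect differed between the core pair and the penumbra pair. Its p-values measure no spread between animals. Cplx1 differed by 0.26 log2, core minus penumbra (SE 0.07, limma adjusted p = 0.034), being -0.19 in the core and -0.45 in the penumbra, lower on 4 of 4 arrays. Its core arrays (-0.06 and -0.32) overlapped its penumbra arrays (-0.27 and -0.64). Cplx3 differed by 0.34 (SE 0.07, limma adjusted p = 0.0094), with 0.03 in the core and -0.31 in the penumbra. Vamp5 differed by -0.35 (SE 0.08, limma adjusted p = 0.021) and Vamp8 by -0.29 (SE 0.07, limma adjusted p = 0.030). Vamp5 averaged -0.14 in core and 0.22 in penumbra, and Vamp8 averaged -0.06 and 0.23, each with both core arrays below both penumbra arrays. For Vamp5 the difference was -0.13 with the mean over its probes, since its second, dim probe gave 0.04 in core and -0.05 in penumbra, and it was -0.18 without penumbra replicate 4. Without a single array the Cplx1 difference ran from 0.083 (without penumbra replicate 4) to 0.45 (without penumbra replicate 3), and the Vamp8 difference was -0.17 without penumbra replicate 3. The spike-in offset, nearly equal in the regions, leaves these differences in place and turns the Vamp5 and Vamp8 penumbra means to -0.24 and -0.24. In the same comparison all 10 meningeal markers and all 7 choroid plexus markers had lower core than penumbra ratios, with median differences of -0.69 and -0.69. The part of those cell types in the Vamp5 and Vamp8 values was not tested. Limma over arrays without a dye coefficient called 0 of the 57 members for this difference, where 2 had an unadjusted p below 0.05.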

How the results depend on the processing

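The number of members called by the size rule stayed at 0 in the core under every alternative of normalization, filter, probe choice and left-out array, and limma with a dye coefficient called 21. In the penumbra it was 0 to 1 with an array left out (without replicate 3, Cplx2 at -1.02), 2 by limma over arrays and 27 with a dye coefficient, which called 4 for the difference between regions. The core median, -0.03, was -0.016 with processed signals, -0.031 with no filter, -0.033 with the mean over probes, -0.50 with spike-in scaling and -0.0049 to -0.00089 with an array left out. The penumbra median, -0.04, was -0.027 with processed signals, -0.043 with the mean over probes, -0.13 with median centring, -0.50 with spike-in scaling and 0.0063 to 0.010 with an array left out. Members lower by 1.2-fold on both arrays numbered 41 in each region with spike-in scaling, and in the penumbra 1 with median centring and 3 with the mean over probes. Members higher by this measure numbered 2 in the core and 1 in the penumbra with processed signals, and 1 in the core with median centring and with the mean over probes. For the healthy pieces, 1 member was called with processed signals (Vamp1), 2 without Aquantile and 2 in Cy5 alone (Syt10 and Vamp1). For the ischemic pieces 2 were called without Aquantile and in Cy3 alone and 0 in Cy5 alone, where Vamp1 had 0.86. The median absolute dye bias, averaged over both regions, was 0.095, and 0.207 with median centring. The cause of these changes was not tested, beyond spike-in scaling, which shifts all ratios by 1 offset, and left-out arrays, which leave dye bias in the mean. The literal reading of the rule gave 64 members in place of 61, with 0 calls in either region or for their difference, and the partner lists had 0 calls under each of their alternatives. No paired analysis was possible because core and penumbra arrays share no replicate numbers. Precision is limited by 2 arrays per region and by the dye bias of the brightest probes, and 4 members were not well above background.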
